A study of Mus musculus with 5 samples.

Results

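The cells described here are the macrophage-like cells of 2 intestinal single-cell libraries, a group of 97 cells with the transcripts of Chil3, Lyz2, Lpl, Mrc1, Ear1 and Marco. Cells were kept when they held 500 or more unique molecular identifiers (UMIs, the tags that mark single captured RNA molecules) and 250 or more genes, with mitochondrial UMIs no higher than 20%. Members were chosen by the measured share of these 6 genes: a kept cell was a member when they made up at least 1% of its UMIs and its barcode occurred in only 1 of the 2 intestinal libraries. The 97 members were among 8447 kept intestinal cells and 20619 kept cells in the 4 libraries with counts used here. All 97 came from the library made after ureteral obstruction, where they were 1.96% (1.59 to 2.39%) of 4946 kept cells. None of the 3501 kept sham cells was a member, but this 0 was set by the barcode condition. In sham 50 cells, or 1.43%, passed the 6-gene threshold, and all 50 carried a barcode also found in the other intestinal library. The upper limits of 0.0857% for 3 cells and 0.105% by the exact interval thus hold only for cells that meet the barcode condition. They do not measure an absence of macrophage-like cells in sham. Ranges in brackets are exact 95% intervals, binomial for shares and Poisson for levels, and cover counting error only.

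The study profiled sorted innate lymphoid cells of kidney and small intestine on the BD Rhapsody system, with 1 library per group, so no difference between groups was tested. Every library came from male mice aged 8 to 10 weeks, and how many mice each library pooled was not stated in these sources. In unilateral ureteral obstruction (UUO) the left ureter was tied and cut, and in sham surgery it was only handled. The intestinal libraries are labelled as group 3 innate lymphoid cells (ILC3s) of wild-type mice, 1 after sham surgery and 1 taken 3 days after UUO. The kidney libraries used beside them are labelled as innate lymphoid cells of wild-type mice 14 days after UUO and of B6.Cg-Pdcd1tm1.1Shr/J mice, a PD-1 knockout, 3 days after UUO. Of wild-type kidney 3 days after UUO only the barcodes were used. The protocol in the labels describes a collagenase digestion of pulmonary artery, a tissue that none of the libraries is labelled with.

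Macrophages are phagocytes that take on the gene programme of the organ they live in. Macrophages of the gut wall typically carry C1q, Cx3cr1 and MHC class II, and some carry Timd4 or Cd163. Those of the air spaces depend on the growth factor GM-CSF and the nuclear receptor PPAR-gamma, clear surfactant lipid, and are known for Siglec-F, CD11c, Marco and the eosinophil-associated ribonucleases, with little C1q or CX3CR1.

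Barcodes were shared between the intestinal libraries more often than between others, and the members have to be read with this in view. The sham and UUO intestines had 158 barcodes in common, while the other 5 pairs of libraries with barcodes had 22 to 27. All 50 sham cells that passed the 6-gene threshold carried a barcode that was also in the UUO library, as did 48 of the 145 such UUO cells; without the condition on barcodes, cells past the threshold made up 1.43% (1.06 to 1.88%) of kept sham cells and 2.93% (2.48 to 3.44%) of kept UUO cells. The absence of sham members is thus set by the barcode condition. The members' barcodes were in neither of the wild-type kidney barcode lists.

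The shared barcodes fell into distinct sets. In 48 pairs both copies passed the 6-gene threshold, with similar depth: the sham copies held 502 to 949 UMIs (median 548.5), the UUO copies 511 to 1138 (median 693), and 47 of the 48 UUO copies were the larger, by a median ratio of 1.24. In 108 pairs neither copy passed, and in 90 of these the depths differed more than 5-fold, the larger copy lying in UUO in 57 pairs and in sham in 33. The smaller copy of these 90 held a median of 2.47% of the UMIs of the larger (2.00 to 11.5%). In the remaining 2 pairs only the sham copy passed; their sham copies held 545 and 880 UMIs and their UUO copies 18403 and 10522. Of the genes seen in a sham copy of the 48 pairs, a median of 29.0% was also seen in the UUO cell of the same barcode and 21.4% in UUO cells of the other 47 barcodes. The smallest deposited barcode of the sham library held 501 UMIs. The median member, with 562 UMIs, would hold 452 at the median ratio of the 48 pairs. At that ratio 78 of the 97 members would fall under that smallest barcode and 19 would not. The ratio, 0.998 to 1.46 over the pairs, comes only from barcodes with both copies among the kept cells, and may not apply to the members. Whether members have an unlisted copy in the sham library was not tested.

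**Figure D1:**
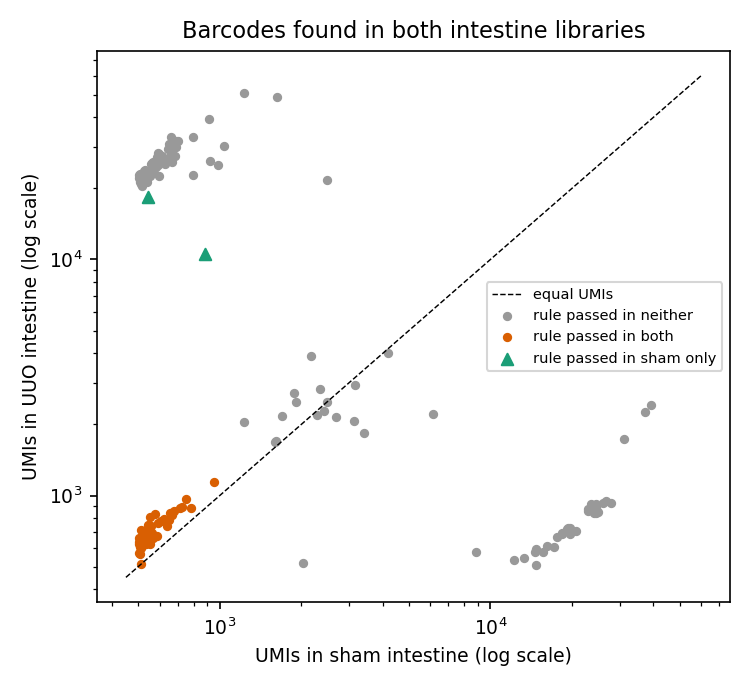
UMIs of each of the 158 barcodes found in both intestinal libraries, sham on the x axis and UUO on the y axis, both on log scales, with the line of equal UMIs. The 48 barcodes past the 6-gene threshold in both libraries lie near the line at 502 to 1138 UMIs, while 90 of the 108 barcodes past it in neither lie more than 5-fold away from it.

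The members were shallow cells. They held 501 to 2773 UMIs with a median of 562, and 71 of the 97 had at most 600, against a median of 2177 over the kept cells of the library. Their medians were 430 genes and 3.92% mitochondrial UMIs, the latter close to the 3.92% of the other kept UUO cells. The 6 genes took 1.01 to 10.7% of a member's UMIs, with a median of 5.62%. The members nearest to the threshold had 1.01, 1.03 and 1.05%, and the nearest cells under it, with an unshared barcode, 0.922, 0.905 and 0.619%. In sham intestine the highest share with an unshared barcode was 0.834%. Members with more than 1000 UMIs numbered 4 and stood near the threshold, at 1.01 to 2.57%; they also carried ILC3 genes at a median of 1.19% of their UMIs, while the median over all members was 0%. Whether these 4 barcodes hold more than 1 cell was not tested, because the doublet caller marked 0 of the 4946 kept cells.

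**Figure D2:**
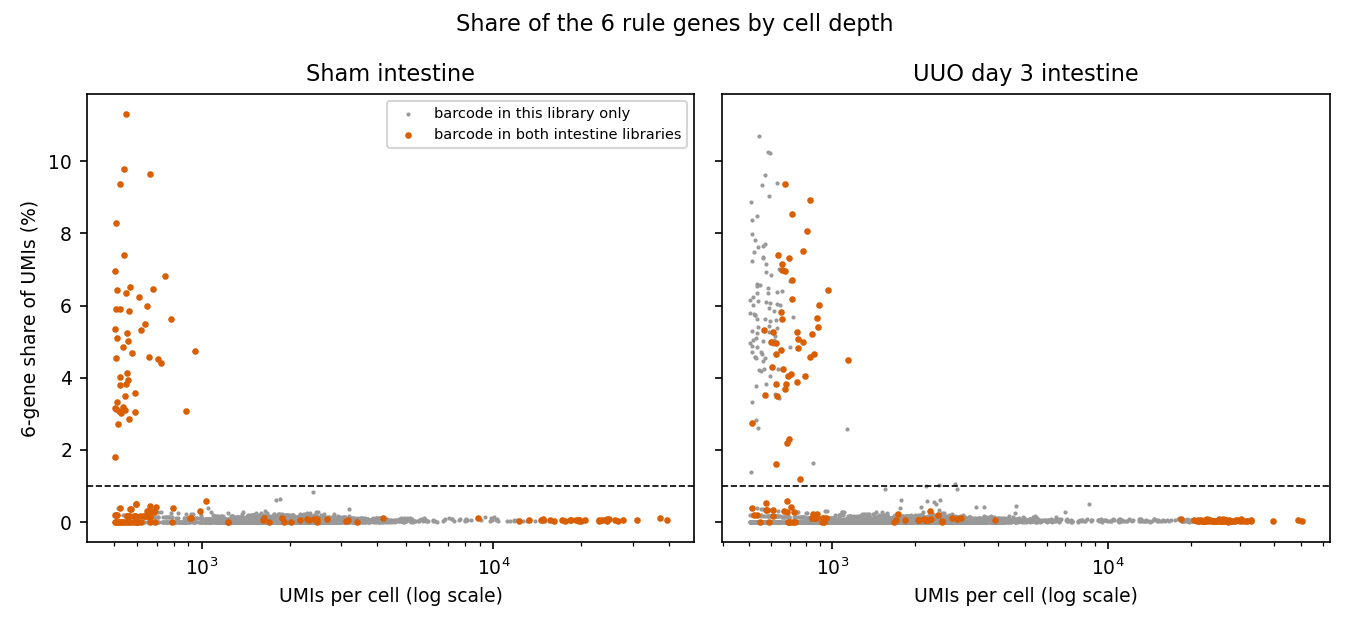
Share of each kept cell's UMIs that came from the 6 genes (y axis, percent) against its UMIs (x axis, log scale) in sham intestine, left, and UUO intestine, right; the dashed line is the 1% threshold and orange points are barcodes found in both libraries. In sham all 50 cells above the line are orange, and in UUO 97 of 145 are grey, most of them with at most 600 UMIs.

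A level is given in CPM, which scales a gene's UMIs, summed over a group of cells, to a group total of 1000000, with no scaling by gene length. The members are set against the 4849 other kept cells of the UUO library, which include the 48 shared-barcode cells. Since the 6 genes chose the members, their levels are descriptions. Chil3 encodes a secreted chitinase-like protein (chromosome 3, 106147554 to 106167564, minus strand, GRCm38) and had a UMI in 100% of members, at 23328 (22137 to 24567) CPM against 274 CPM in the other cells. Lyz2, the lysozyme of myeloid cells (chromosome 10, 117277331 to 117282321, minus strand), stood at 23409 (22216 to 24650) against 224 CPM. Lpl, the lipase that releases fatty acids from triglyceride, was at 2226 (1869 to 2631) CPM and in 71.1% of members. Mrc1, the mannose receptor, was at 1462 (1176 to 1797) CPM in 55.7%, Ear1, a ribonuclease, at 1072 (829 to 1364) CPM in 48.5%, and Marco, a scavenger receptor, at 649.8 (464 to 885) CPM in 29.9%. A member carried 1 to 6 of the genes, with a median of 4. With every cell thinned to 500 UMIs, Chil3 had a UMI in 100% of members, 11.2% of other UUO cells and 11.6% of sham cells under the threshold, so a low level of Chil3 RNA was found across both libraries; Lyz2 gave 97.9, 8.58 and 8.95%.

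Near-identical genes can exchange reads in counting, and the members' genes include several such families. Chil4, the close copy of Chil3, was at 0 UMIs in the members. Ear2 stood at 634 (451 to 866) CPM beside Ear1, and how reads were divided between the copies was not stated in these sources. Lyz1, the lysozyme of intestinal Paneth cells and the neighbour of Lyz2 on chromosome 10, went the other way, with 244 (136 to 402) CPM in members and 1331 CPM in the other cells, a ratio of 0.18 (0.10 to 0.30). The promoter windows of Chil3, the pair Lyz2 and Lyz1 are shown because these genes carry most of the 6-gene signal and its closest counterpart. They are RefSeq sequences of GRCm38.p6, from 250 bases before to 50 after the start, at chr3:106167515-106167814, chr10:117282223-117282522 and chr10:117292819-117293118, all on the minus strand and written 5′ to 3′ in the direction of the gene. Capitals mark AGGAAGT on either strand, a core of the kind bound by ETS factors such as PU.1.
Chil3: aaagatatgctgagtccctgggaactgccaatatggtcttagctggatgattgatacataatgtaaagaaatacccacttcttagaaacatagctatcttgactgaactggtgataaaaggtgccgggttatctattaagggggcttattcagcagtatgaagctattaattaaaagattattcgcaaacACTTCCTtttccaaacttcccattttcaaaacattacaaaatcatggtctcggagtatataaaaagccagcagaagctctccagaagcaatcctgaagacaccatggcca
Lyz2: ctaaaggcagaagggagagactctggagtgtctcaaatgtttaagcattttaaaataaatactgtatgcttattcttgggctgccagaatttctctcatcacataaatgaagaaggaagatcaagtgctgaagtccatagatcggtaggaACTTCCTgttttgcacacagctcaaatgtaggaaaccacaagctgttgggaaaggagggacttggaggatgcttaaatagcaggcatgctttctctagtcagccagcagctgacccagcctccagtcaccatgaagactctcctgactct
Lyz1: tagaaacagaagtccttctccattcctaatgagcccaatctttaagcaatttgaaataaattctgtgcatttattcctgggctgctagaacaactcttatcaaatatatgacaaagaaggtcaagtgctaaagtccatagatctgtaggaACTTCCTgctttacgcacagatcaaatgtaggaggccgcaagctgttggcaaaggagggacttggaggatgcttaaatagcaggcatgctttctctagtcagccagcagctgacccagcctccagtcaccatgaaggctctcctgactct
The Lyz2 and Lyz1 windows had the same base at 201 of 300 positions (67%), and both held the marked letters at the same place, although their levels in the members differed. Of all 32851 windows 9.35% held these letters, as did those of Chil3, Lyz2 and Mrc1 among the 5 of the 6 genes with a window, and 1 of 19 alveolar macrophage genes with one. The form marked was picked after the matches of 4 forms had been seen: GAGGAA was in 28.3% of windows and in those of Mrc1 and Marco, GAGGAAGT in 3.20% and in none of the 5, and GGAAGT in 23.8% and in the same 3 as the form shown. A match is a description of letters and not evidence of binding.

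Of 12340 genes with at least 20 UMIs in members and other cells together, 950 (7.7%) had at least 4 times the CPM in members, 4756 (38.5%) at most 0.25 times, and the median log2 ratio was -0.32, with 10 CPM added on both sides. Because members summed to only 61557 UMIs, 1 UMI was worth 16.2 CPM, and a single UMI could place a rare gene past 4-fold. A tested gene with no UMI in members counts as at most 0.25 times. The lower end of the counting interval of the ratio was at least 4 for 287 genes (2.33%), which is the firmer count. These shares of 7.7 and 2.33% are the ones to set beside the counts of each list below.

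The core macrophage list holds genes that many macrophages carry, and 15 of its 16 genes had a UMI in members. Of the core macrophage list, 13 of the 15 tested genes were at least 4 times higher in members, 9 of them with the lower bound, and the median log2 ratio was 3.45. Cd68, a lysosomal membrane protein, stood at 2226 (1869 to 2631) CPM and 77.8 (63.6 to 94.7) times the other cells. Tyrobp, the adaptor DAP12, was 24.2 (19.0 to 30.5) times higher, and Ctss, the protease cathepsin S, 19.2 (16.9 to 21.7) times. Csf1r, the receptor for the growth factor M-CSF, was at 130 (56.1 to 256) CPM and Adgre1, which encodes F4/80, at 244 (136 to 402) CPM. Itgam, which encodes CD11b, had 0 UMIs in the members, where 3 UMIs would be 48.7 CPM. Mpeg1, Gpnmb, Cybb and Axl, a pore-forming protein, a lysosomal glycoprotein, an oxidase subunit and a receptor for apoptotic cells, were also among the 25 highest ratios, from 76.8 to 119 times.

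Of the tissue macrophage lists, only the alveolar one was detected through most of its genes. The list leaves out the 6 genes, but it was drawn up with earlier results of these data known, and Marco, Ear1 and Chil3 in the rule are themselves alveolar macrophage genes, so its direction is no independent evidence. Of its 30 genes, 27 had a UMI in at least 10% of members; 23 of the 29 tested were at least 4 times higher, 21 with the lower bound. Its summed level was 16765 (15758 to 17820) CPM in members against 4964 CPM in other cells, and the median log2 ratio was 4.05. By cell, a member carried 2 to 13 of the 30 genes, with a median of 7, and 96 of 97 carried at least 3.

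The list includes several surface and effector genes. Atp6v0d2, a subunit of the lysosomal proton pump, was at 2307 (1943 to 2719) CPM in members and 29.9 CPM in other cells, 77.1 (63.3 to 93.5) times. Plet1, a surface protein, was 86.5 (64.7 to 115) times higher at 1137 CPM, and the tetraspanin Cd9 55.2 (46.3 to 65.4) times at 2729 CPM. These 2 and Atp6v0d2 were found in 49.5, 76.3 and 69.1% of members. Siglecf, the lectin that marks mouse alveolar macrophages and eosinophils, had 11 UMIs in the members, 179 (89.2 to 320) CPM, and Itgax, which encodes CD11c, 520 (356 to 734) CPM. Slc7a2, an arginine transporter, stood at 471 (316 to 677) CPM, and Krt79, a keratin, at 211 (112 to 361) CPM. Siglecf was in 10.3% of members, and the other eosinophil genes of the lists, Prg2, Epx, Ccr3 and Il5ra, were at 0.

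Receptors and factors of the GM-CSF and PPAR-gamma route were measured too. Of 16 tested genes 9 were at least 4 times higher, 7 with the lower bound. Csf2ra, Csf2rb, Pparg, Fabp4 and Bhlhe41, named next, are also genes of the alveolar list and were counted there. Csf2ra and Csf2rb, the 2 chains of the GM-CSF receptor, were at 975 (744 to 1255) and 504 (342 to 715) CPM, 19.7 (14.8 to 25.6) and 36.1 (23.9 to 53.0) times the other cells. Pparg was at 390 (249.8 to 580) CPM against 9.002, and Fabp4, a fatty acid carrier and known PPAR-gamma target, at 309 (186 to 482) against 14.3 CPM. The transcription factor gene Bhlhe41 was at 374 (237 to 561) CPM against 1.60. Its relative Bhlhe40, a further gene of the alveolar list, was lower in members, at 764 (561 to 1015) CPM against 2620, and at 377 (230 to 582) CPM without the 4 members over 1000 UMIs. Serpinb1a, Krt19 and Fabp1 of the list were also below the other cells, with ratios of 0.58, 0.73 and 0.23. The interval of Krt19, 0.40 to 1.22, includes 1, and its log2 ratio of -0.44 became 0.53 as a mean of per-cell CPM, 0.32 with cells thinned to 500 UMIs, 0.034 against unshared cells only and 0.57 in members with at least 1000 UMIs. Ear10 was at 0 in all intestinal groups.

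**Figure D3:**
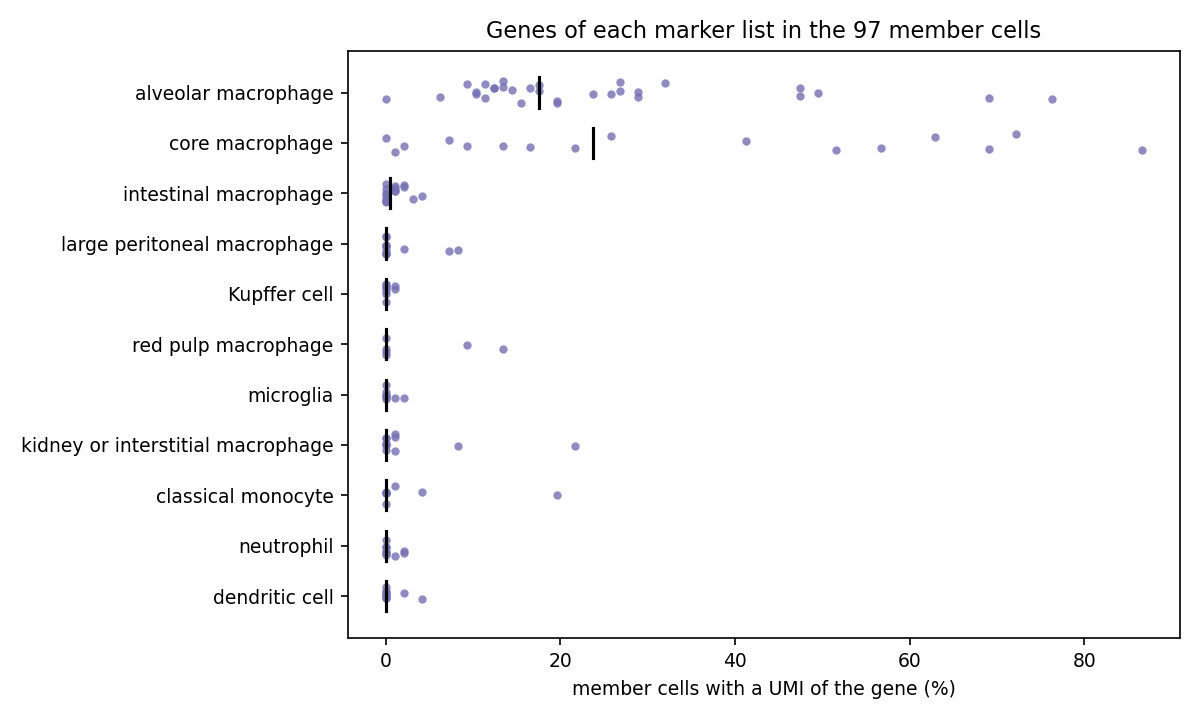
Percentage of the 97 members with a UMI of each gene (x axis), by marker list (y axis); each point is a gene, shifted up or down only to separate points, and the black bar is the median of the list. The alveolar list has 27 of 30 genes at 10% or more, and the intestinal, large peritoneal, Kupffer cell, microglia, neutrophil and dendritic cell lists have none.

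The genes of resident gut macrophages were near or at 0. Of 16 genes in the intestinal macrophage list, 0 reached 10% of members and 8 had no UMI: C1qa, C1qb, Cx3cr1, Il10, Timd4, Cd4, Cd163 and Lyve1. Of its 10 tested genes 2 were at least 4 times higher in members, 0 with the lower bound. The list summed to 260 (149 to 422) CPM, against 268 CPM in the other cells of the library. C1qc, which codes for a chain of the complement protein C1q, had 1 UMI, and Apoe, the lipoprotein of many resident macrophages, 2. Of 7 MHC class II genes, 4 were at most 0.25 times the other cells, beside 38.5% of all genes tested, and 1, H2-DMa, was at least 4 times higher with 7 UMIs. Cd74, the invariant chain, was at 81.2 (26.4 to 190) CPM against 483, and H2-Ab1 at 48.7 (10.0 to 142) against 305. A planned comparison with C1q-bearing intestinal cells was not made, since the sham library held 0 and the UUO library 1 such cell.

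The other tissue macrophage, monocyte, neutrophil and dendritic cell lists had at most 1 gene each in at least 10% of members. The Kupffer cell, microglia and large peritoneal lists had 0 genes in at least 10% of members, and Clec4f, Vsig4, Tmem119, P2ry12, Icam2 and Prg4 were at 0. Of the red pulp list only the haem-degrading enzyme Hmox1 reached that share, at 276 (161 to 442) CPM, and Spic was at 0. Of the kidney or interstitial list it was Cd81, a tetraspanin, at 341 (211 to 521) against 165 CPM; 5 of its 11 genes had a UMI, among them the lipid receptor Trem2 with 9, and it summed to 536 (369 to 753) CPM against 218. Of the nonclassical monocyte list it was the nuclear receptor Nr4a1, also at 341 CPM, against 2166 in other cells. Fn1, fibronectin, was the only such gene of the classical monocyte list, at 341 (211 to 521) CPM, while Ly6c2, Ccr2 and Vcan were at 0. S100a8 and S100a9 of neutrophils and Flt3, Xcr1 and Clec9a of dendritic cells were at 0. At least 4 times higher in members were 1 of 5 tested large peritoneal and 1 of 3 red pulp genes, both with the lower bound. Of 7 kidney or interstitial genes 2 were, 1 with the lower bound. In the Kupffer cell and microglia lists it was 0 of 3 and 0 of 2. For classical monocytes it was 1 of 5, with the lower bound, and for neutrophils 1 of 3, without it. The large peritoneal list summed to 276 (161 to 442) against 104 CPM, and the red pulp list to 422 (276 to 619) against 19.4. Of the lung epithelium list 8 of 10 genes were at 0, Sftpc, Sftpb and Ager among them, and all 8 kidney epithelium genes were.

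Enzymes and receptors for uptake and digestion were measured next. Of 18 lysosomal genes 13 were at least 4 times higher in members, 9 with the lower bound, with a sum of 20355 (19244 to 21514) against 2172 CPM. Ctsd, cathepsin D, was 33.4 (27.8 to 39.9) times higher, Ctsk, cathepsin K, 94.0 (66.2 to 132) times, and Psap, which yields the saposins of sphingolipid breakdown, 10.0 (8.75 to 11.5) times. Of 14 tested scavenger and pattern receptors 13 passed 4-fold and 10 the lower bound, with Fcgr4, an Fc receptor, at 406 (263 to 600) CPM, the oxidized-lipid receptor Olr1 at 260 (149 to 422) and Clec4n, which encodes dectin-2, at 179 (89.2 to 320). These counts include Mrc1 and Marco of the rule, and Ctsk and Olr1 are also genes of the alveolar list.

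Lipid genes followed, with 11 of 19 past 4-fold, all 11 with the lower bound. Plin2, which coats lipid droplets, was at 991 (758 to 1273) CPM, 13.9 (10.6 to 18.1) times the other cells. Abcg1, a cholesterol exporter, was 40.4 (30.8 to 52.2) times higher, Lipa, the lysosomal acid lipase, 18.0 (14.1 to 22.8) times, and Pla2g15, a lysosomal phospholipase, 83.3 (43.8 to 151) times. Of these, Abcg1 is also a gene of the alveolar list. The desaturases Scd1 and Scd2 were at 0. The iron storage genes Fth1 and Ftl1 and the metallothionein Mt1 were among the most abundant by CPM, at 10234, 6790 and 3217.

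Of 16 chemokine and 16 cytokine genes, 9 and 8 had a UMI in members. The chemokine list summed to 3574 (3117 to 4079) CPM against 371 in other cells, most of it Ccl6. Of 10 tested chemokine genes 3 passed 4-fold, 2 with the lower bound: Ccl6 reached 3200 (2769 to 3680) CPM, 36.0 (30.8 to 41.9) times the other cells, and Ccl9 195 (101 to 341) CPM. Of 11 tested cytokine genes 3 passed 4-fold, 2 with the lower bound. Il1rn, which encodes an antagonist of interleukin-1, was at 374 (237 to 561) CPM and Il18, of the same family, at 260 (149 to 422), while Il1b, Il6, Il10 and Il12b were at 0. Of 6 tested type 2 activation genes 3 passed 4-fold, 2 with the lower bound, a count that includes genes of the rule. Of those outside the rule, Retnla was at 0 and Arg1 had 7 UMIs, 114 (45.7 to 234) CPM against 216 in other cells. Of 10 interferon genes 0 were at least 4 times higher and 8 at most 0.25 times, beside 7.7 and 38.5% of all genes tested. In members 7 of the 10 had no UMI, and the list summed to 211 (112 to 361) against 438 CPM. Pdcd1, which encodes PD-1, was at 0, and Cd274, which encodes its ligand PD-L1, had 6 UMIs.

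Genes of cell division were higher in a fraction of members. Of 13 cell cycle genes 9 passed 4-fold, 7 with the lower bound; Mki67 was at 276 (161 to 442) CPM, 6.88 (3.98 to 11.1) times the other cells, and Top2a, a topoisomerase of dividing cells, at 439 (289 to 638), 11.7 (7.64 to 17.2) times. At full depth 26 members had at least 2 UMIs of the list and 14 at least 5. With each cell thinned to 500 UMIs, 26.8% (18.3 to 36.8%) of members had at least 2 UMIs of the list, against 2.56% (2.13 to 3.04%) of other UUO cells. Among the shared-barcode macrophage-like cells it was 52.1% (37.2 to 66.7%) in UUO and 58.0% (43.2 to 71.8%) in sham. At 3 UMIs or more the shares were 22.7% (14.8 to 32.3%) in members, 50% (35.2 to 64.8%) in shared UUO and 44.0% (29.99 to 58.7%) in shared sham cells, and the intervals of members and shared sham cells overlapped. The difference between these groups was not tested.

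**Figure D4:**
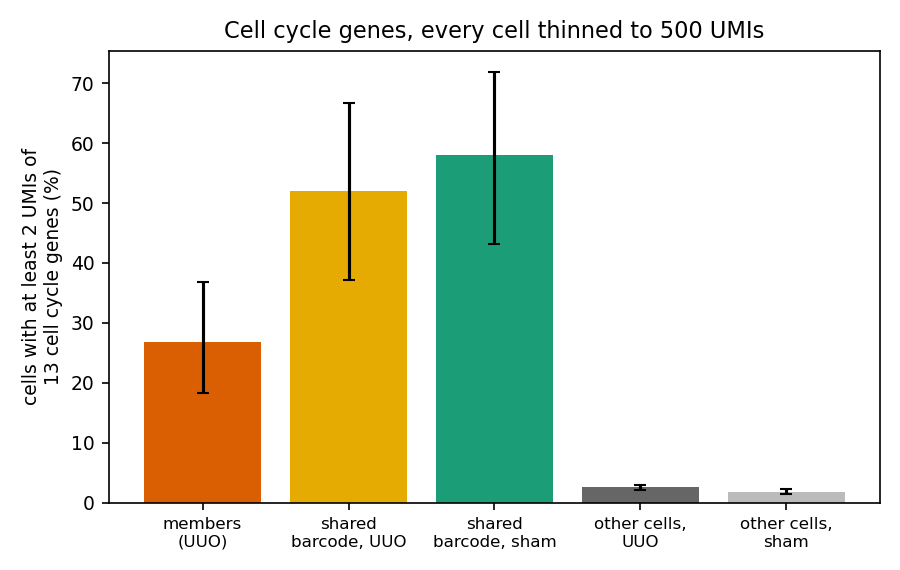
Percentage of cells with at least 2 UMIs of 13 cell cycle genes (y axis) after thinning each cell to 500 UMIs, for the members, the macrophage-like cells with a shared barcode in each library, and the other cells of each library; error bars are exact 95% binomial intervals. Members stand at 26.8%, shared-barcode cells at 52.1 and 58.0%, other cells at 2.56 and 1.83%.

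The members and the shared-barcode cells passed the same 6-gene threshold, so like levels of macrophage genes follow in part from the choice of cells and are descriptions. Atp6v0d2 was at 2307 CPM in members, 2491 in shared UUO cells and 2473 in shared sham cells. The alveolar list summed to 16765, 16165 and 14840 CPM, the core list to 16261, 16049 and 17141. Over 749 genes, Pearson's r of log2(CPM + 10) was 0.829 with the shared UUO and 0.818 with the shared sham cells. It was 0.507 with the 10 PD-1 knockout kidney cells past the same threshold and 0.403 with unshared other UUO cells under it. These are descriptions across genes, which are not replicates, and the groups differ in depth. Other lists were further apart. The haemoglobin genes summed to 130 CPM in members and 724 and 996 in the shared cells, and the mast cell list to 195, 29.0 and 34.4. In members the mast cell sum was 12 UMIs of Kit alone, a gene also in the ILC3 list, and the other 7 mast cell genes were at 0. The ILC3 list stood at 2827 CPM in members and 695 and 859 in the shared cells, and Il22, the main ILC3 cytokine, at 1397, 232 and 344 CPM. Without the 4 members over 1000 UMIs, the other 93 had 1414 (1112 to 1773) CPM of the list and 603 (413 to 852) CPM of Il22.

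**Figure D5:**
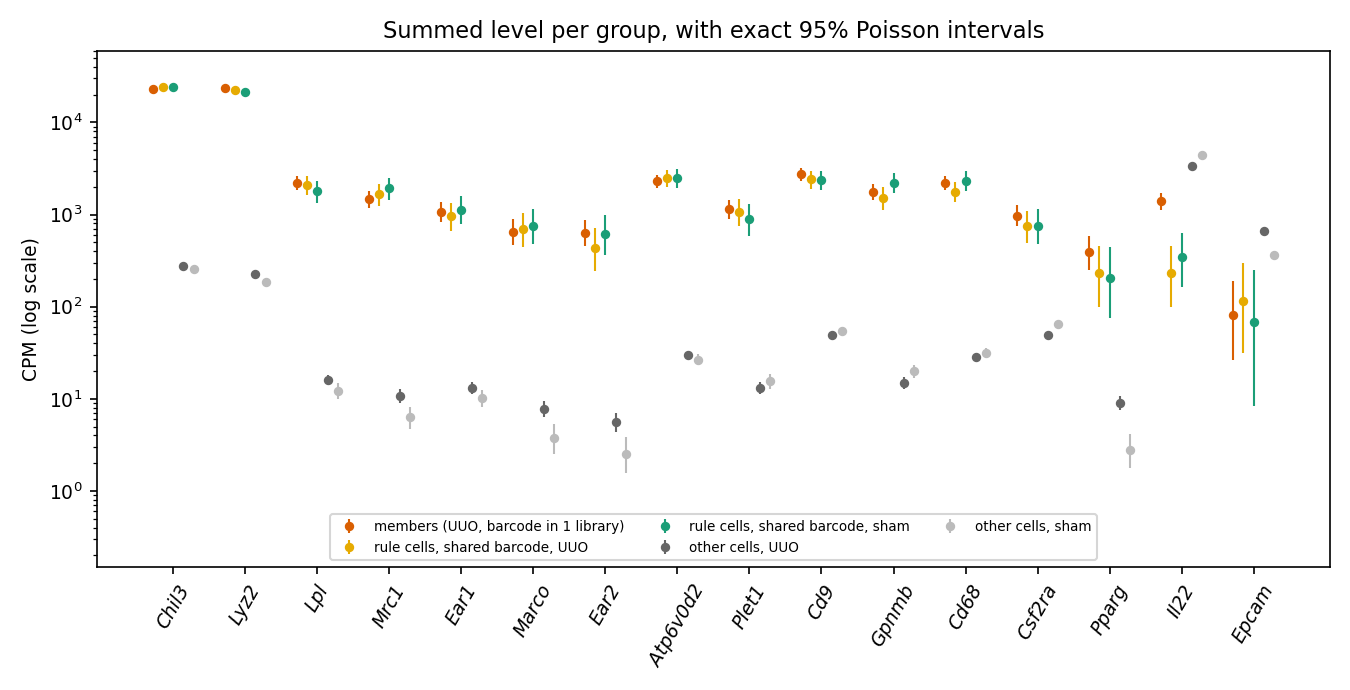
Summed level (y axis, CPM, log scale) of 16 genes in members, shared-barcode macrophage-like cells of UUO and sham, and other cells of UUO and sham; bars are exact 95% Poisson intervals. From Chil3 to Pparg the 3 macrophage-like groups lie above both groups of other cells, and for Il22 and Epcam they lie below.

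RNA of the other cell types in the gut was present at a low level in the members. The 14 ILC3 genes summed to 2827 CPM against 10903 in other UUO cells, with Il17a and Gzma at 0 and Il7r, the interleukin-7 receptor, at 325 (198 to 502) against 2375 CPM. Without the 4 members over 1000 UMIs Il7r was at 207 (104 to 371) CPM. After thinning to 500 UMIs, 45.4% of members and 94.6% of other cells had a UMI of the list. The 14 intestinal epithelial genes summed to 2014 against 13578 CPM and none was at 0; Defa24, a defensin of Paneth cells, was in 28.9% of thinned members and 23.1% of other cells, a like share in both. All 6 B cell genes were at 0, and 5 of 9 T cell genes. Immediate early genes, which also respond to tissue dissociation, summed to 3493 against 12987 CPM, with Fosb at 893 (673 to 1163) against 4364, or 434 (275 to 651) CPM without those 4 members. How far free RNA sets the members' own low genes was not tested.

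In the kidney libraries, 10 cells of the PD-1 knockout and 3 of wild-type mice at day 14 passed the same 6-gene threshold, and their levels are given beside those of the members. A separate planned choice of kidney cells, by C1qa, C1qb and C1qc at 0.3% or more of UMIs, gave 11 knockout and 5 wild-type cells. The levels of those C1q-chosen cells are not given here. In the 10 cells Lyz2 stood at 14031 (12913 to 15220) CPM and Chil3 at 362 (203 to 597), while Ear1, Marco, Atp6v0d2, Plet1 and Gpnmb were at 0, where 3 UMIs would be 72.4 CPM. C1qb was at 1835 (1446 to 2297) CPM, Apoe at 3864 (3288 to 4511), Itgam at 869 (609 to 1204) and Cd74 at 5579 (4882 to 6346). The members had 0, 2, 0 and 5 UMIs of these 4 genes. Tissue, genotype and library cannot be told apart in this comparison. The 10 cells also carried the neutrophil list at 11471 (10463 to 12551) CPM, with S100a8 at 3840 and S100a9 at 3478, and the haemoglobin genes at 16615 CPM; the part of such RNA in their Lyz2 and Itgam levels was not tested. In the 3 wild-type cells, with 16599 UMIs in all, Lyz2 was at 17953 (15972 to 20111) CPM, Apoe at 13555 (11842 to 15447), Cd74 at 5964 (4847 to 7261) and C1qb at 904 (506 to 1490). They also had Gpnmb at 2109 (1469 to 2932) and Atp6v0d2 at 301 (97.8 to 703) CPM, while Chil3, Ear1, Marco, Plet1, S100a8 and the haemoglobin genes were at 0, where 3 UMIs would be 181 CPM.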

How the data were processed

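UMI counts per gene and cell for 31253 genes were deposited for 4 of the libraries used here as matrices of whole numbers, and are not normalized per the values. The submitters' processing notes list Seurat, UMI-tools, CASAVA 1.8 and, as genome, mm10. For the aligner, annotation and cell calling, nothing was given in the sources used here. Totals in the 4 libraries with counts were 8717372 to 16466027 UMIs over 3621 to 7007 barcodes, and their kept cells had medians of 1824 to 2177 UMIs. Of the gene identifiers 31107 were in the GRCm38 gene table. The wild-type kidney matrix of day 14 took the gene order of the others; log2(CPM + 1) correlated across genes with the knockout kidney at r = 0.992, and at 0.21 when shifted by 1 gene.

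The authors' counts were summed over cells (Python 3.11.15, scipy 1.17.1, pandas 2.3.3) and given as CPM with exact Poisson intervals; ratios have exact conditional binomial intervals and shares exact binomial intervals, at 95%. The intervals of the ratio were checked on simulated counts. As each group is a single library, no difference between groups was tested. Genes were named by rule: the 6 genes, the 25 highest CPM and 25 highest ratios among genes with at least 50 member UMIs, list genes in at least 10% of members or at or near 0, and close gene copies. The members and the 37 gene lists were chosen with earlier results of these data known. Doublets were not removed: scrublet (scanpy 1.11.5), run with its default settings, marked 0 of 4946 cells and was treated as having failed. The alternatives varied the 6-gene share, depth, mitochondrial limit, barcode condition, gene filter, weighting of cells and thinning. Sequences came from RefSeq promoter windows of GRCm38.p6, in which 5 of the 6 genes had an entry.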

Additional observations from a re-analysis of the deposited data

How the results depend on the processing

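No paired analysis was possible because each group has 1 library. With shared barcodes kept, the 97 members became 195 over both libraries: 145 in UUO, 2.93% of its kept cells, and 50 in sham, 1.43%. With at least 1000 UMIs they became 4 (0.0916% of UUO cells), so the description rests on cells of 500 to 1000 UMIs. The summed alveolar level moved from 16765 CPM to 14547 at a 6-gene share of 0.5%, 18105 at 2%, 7506 with at least 1000 UMIs and 17888 as a mean of per-cell CPM. It was 18254 for members with at most 1000 UMIs, an alternative chosen after seeing the data. The 23 alveolar genes past 4-fold became 11 in the 4 cells with at least 1000 UMIs and 5 with those cells thinned to 1000 UMIs; under the other alternatives they were 16 to 24. The 950 genes past 4-fold became 447 with at least 100 UMIs per gene. They became 287 by the lower counting bound and 602 with cells thinned to 500 UMIs, both chosen after seeing the data, as was the comparison with unshared cells only (24 alveolar genes, 958 genes).

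Sign changes are given for genes whose interval excluded a ratio of 1. In the 4 cells with at least 1000 UMIs the log2 ratio to other cells changed sign for Actb (-1.15), B2m (0.24), Bhlhe40 (0.27), Dusp1 (0.52), Il22 (0.90), Junb (0.050), Tmem176a (0.19) and Tmem176b (0.034). Thinned to 1000 UMIs it did so for Actb (-0.73), B2m (0.44), Dusp1 (0.63), Il22 (0.86), Tmem176a (0.15) and Zfp36 (0.55). Genes with at most 3 UMIs in these cells, 69 and 86 of 115, were given no ratio, a limit set after the values had been seen; without it 40 and 52 of the 115 had the opposite sign. The other alternatives changed no sign of such a gene. Among genes whose interval included 1, Krt19 (-0.44) became 0.57 with at least 1000 UMIs, 0.53 as a mean of per-cell CPM, 0.32 thinned to 500 UMIs and 0.034 against unshared cells. Itm2b (-0.11) became 0.22 with at least 1000 UMIs, and H2-D1 (0.076) was between -0.15 and -0.011 under 5 alternatives. The removal of cells marked by scrublet was not run as an alternative, since none was marked.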

Other observations

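A few further genes of the members are given here. The coagulation genes F7 and F10, better known from liver, were at 211 (112 to 361) and 114 (45.7 to 234) CPM, against 1.02 and 0.80 CPM in other cells of the UUO library. F7 is a gene of the alveolar list and F10 of the large peritoneal list. Sort1, which encodes the sorting receptor sortilin, was at 1137 CPM and 32.4 (24.8 to 41.7) times the other cells, and Alox5ap, the activating protein of leukotriene synthesis, at 828 CPM and 60.4 (43.4 to 82.7) times. C5ar1, the receptor of the complement fragment C5a, was at 357 (224 to 541) CPM, while C1qa, C1qb and C3ar1 were at 0. Xist was at 0 and the Y-linked Ddx3y at 179 (89.2 to 320) CPM, beside the label of male mice.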
